A study of Mus musculus with 42 samples.

Results

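Hippocampal microglia of wild-type C57BL/6 mice were compared between animals raised germ-free (GF), without any microbes, and animals kept specific-pathogen-free (SPF), with an ordinary flora free of listed pathogens. The members are the wild-type hippocampus columns of a table of read counts: 4 SPF libraries (SPF1, SPF2, SPF3 and SPF4) and 3 GF libraries (GF529, GF530 and GF532), 7 of the 42 libraries of the series. All 7 mice were 16 weeks old and received no acetate, the treatment given to other germ-free groups of the study. Microglia were enriched on a density gradient and sorted as CD11b+ CD45lo cells into lysis buffer, a gate meant to leave out CD45-high blood and border myeloid cells. The labels give 1 library per animal and do not state the C57BL/6 substrain, colony, litter or sorting day of either group, so housing and colony cannot be told apart. Unless another fit is named, each p for hippocampus rests on the spread within groups, estimated over all 22 hippocampus libraries of 6 groups. The 15 others are 5xFAD and acetate-treated mice. The p-values for cortex, for whole brain and for hippocampus against cortex come from separate fits. A fit of the 7 libraries alone called 24 genes higher and 10 lower, against 56 and 68.

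Microglia are the resident macrophages of the brain parenchyma. They clear debris through lysosomes, sense nucleotides, lipids and chemokines, and keep a set of homeostatic genes that depends on TGF-beta and on signals from the tissue. Gut microbes supply short-chain fatty acids and other products, and germ-free mice are known for microglia with an altered maturation state. Germ-free mice are also known for changed stress hormone release, and glucocorticoids act on microglia through a nuclear receptor that switches on a shared set of genes, Fkbp5, Tsc22d3, Per1 and Zbtb16 among them.

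Total counts were 19729129, 21150484, 18478981 and 5862938 in SPF1 to SPF4 and 18531542, 16468507 and 18492063 in GF529, GF530 and GF532. SPF4 was shallow but not poor in genes. At its depth, the other SPF libraries would show 17189 to 17495 genes, and SPF4 showed 17241. GF530 would show 16476 genes at that depth, fewer than the 17532 and 17623 of the other GF libraries, and it sat apart on the first principal component, which held 26% of the variance. SPF4 sat apart on the second (20.2%). The mean correlation of log2 CPM was higher with SPF than within GF for GF529 (0.9405 against 0.938) and GF532 (0.9415 against 0.9364). SPF3 carried haemoglobin transcripts (erythroid markers summed to 71.98 CPM, at most 1.534 CPM in the other SPF libraries) and GF532 carried neutrophil granule transcripts (240.2 CPM for 11 markers, with S100a8 at 76.3 CPM, against 0.2199 CPM at most in SPF). CPM, the usual depth-normalised count, is taken here after TMM scaling of the library totals. Y-linked Ddx3y lay between 102.7 and 135.8 CPM in all 7 libraries, so every library held male RNA. The labelled cell type was borne out by its markers: P2ry12 lay between 4875 and 7534 CPM, and 0 of 10 microglia markers were under 1 CPM throughout.

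Across 17063 genes tested, 56 were higher and 68 lower in GF than in SPF (124 genes, 0.727%; 0.328% higher and 0.399% lower) at an adjusted p under 0.05 in edgeR's quasi-likelihood test with Benjamini-Hochberg adjustment. At an unadjusted p under 0.05 there were 2151 genes (12.6%; 5.95% higher and 6.66% lower). The rises were larger than the falls: the median fold was 2.122 for the 56 rises, 31 of which were at least 2-fold, and 1.587 for the 68 falls, 15 of which were. All 56 rises and 67 of the 68 falls had CPM ranges that did not overlap between the groups, which held for 11.1% of all genes tested. Cbx2, chosen for mention after its values were seen, was the exception. The calls rest on the same counts, so this separation largely follows from selection and adds no support. The rule for naming the largest changes required it too. The falls reached the most abundant microglial transcripts, while 7 called genes were at 0 in every library of one group. The split of the calls depended on scaling. With total counts in place of TMM, 98 genes were higher and 27 lower, so 78.4% of calls were rises in place of 45.2%. That scaling shifted the median of all genes by 0.086 on the log2 scale, and no called gene changed sign in any of the 16 alternatives.

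**Figure D1:**
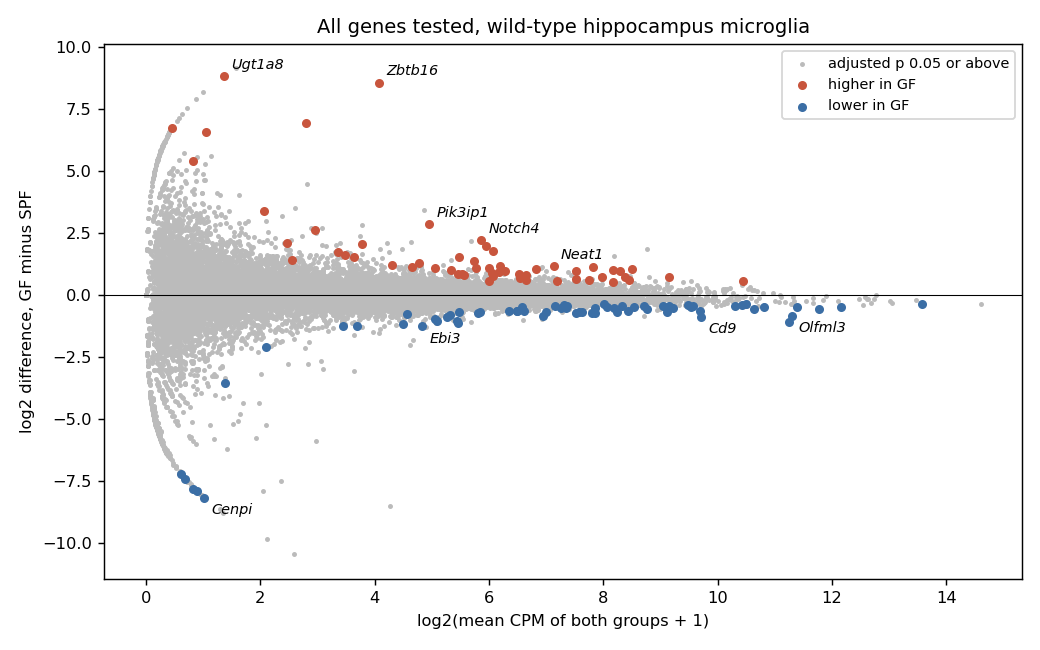
Each point is 1 of 17063 genes, with the log2 of the mean CPM of both groups plus 1 on the horizontal axis and the fitted log2 difference, GF minus SPF, on the vertical axis. Red points are the 56 genes called higher, blue points the 68 called lower and grey points the rest; the falls extend to abundant genes such as Olfml3, and the largest differences lie at low CPM.

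Fewer genes passed in total when any 1 library was left out. Each such fit also had fewer libraries to test with, and the part of this loss in the counts was not tested. Leaving out SPF4 left 17 higher and 16 lower, and leaving out GF529 left 17 and 8. The counts were 33 and 42 without SPF1, 26 and 29 without SPF2, and 33 and 25 without GF530; they were 58 and 51 without SPF3 and 52 and 46 without GF532. Without both SPF4 and GF530, 15 genes were higher and 14 lower, and 12 and 9 of these were among the calls from all libraries. Of the 124 called genes, 14 passed with any 1 library left out, and of the 41 named by rule, 7 did: Zbtb16, Sgip1, Neat1, Tmem181b-ps, Olfml3, Ebi3 and Sqor.

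**Figure D2:**
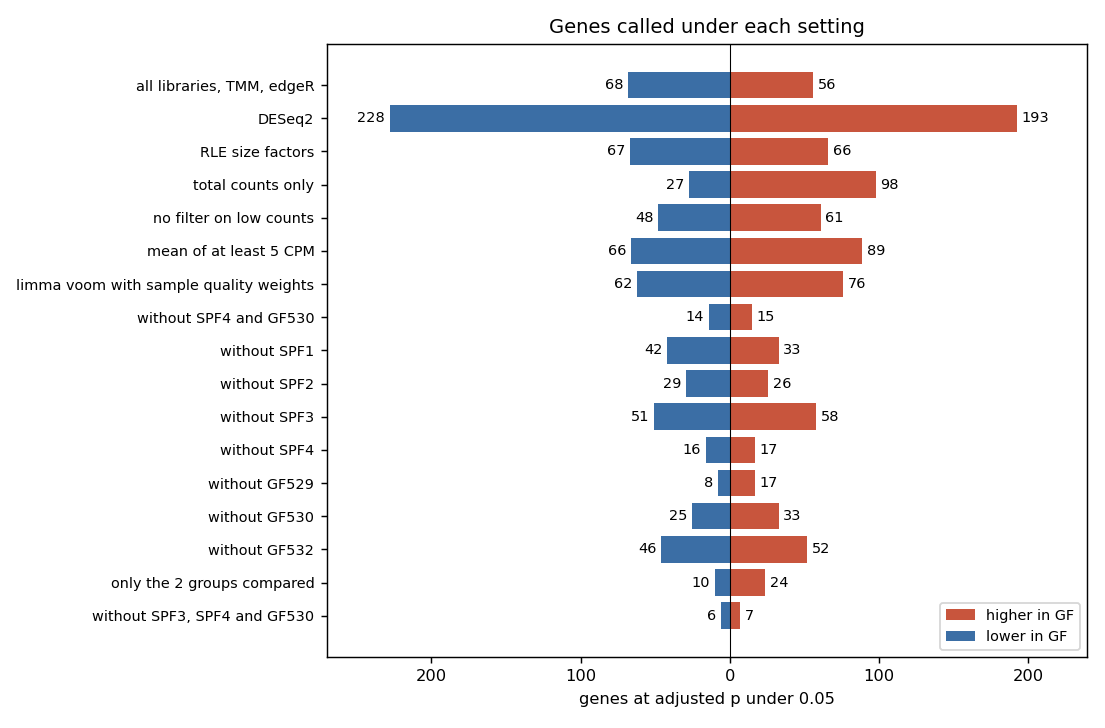
Bars give the number of genes at an adjusted p under 0.05 that were higher (red, to the right) or lower (blue, to the left) in GF under each setting named on the vertical axis; the axis counts genes in both directions from 0. DESeq2 called the most genes (193 and 228), and the fit without SPF3, SPF4 and GF530, chosen after seeing the data, called the fewest (7 and 6).

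Some rises belonged to a list of genes known to be induced by glucocorticoids. This list and the other lists below were chosen with earlier results of these data known, so their counts are not independent support. Of the 25 tested members of the glucocorticoid-induced list, 4 were called higher (0.328% of all genes) and 0 lower. The median log2 difference was 0.14 against 0.00 over all genes, with 16 members above 0 and 9 below. In 9 every GF library lay above every SPF library, and in 2 below (5.39% and 5.71% of all genes). At an unadjusted p under 0.05, 11 were higher and 3 lower (5.95% and 6.66% of all genes). Zbtb16, a zinc-finger transcription factor also called PLZF, was at 0, 0, 0.275 and 0 CPM in SPF1 to SPF4 and at 58.1, 24.6 and 12.6 CPM in GF529, GF530 and GF532. It was close to absent in every SPF library and plain in every GF library, with GF529 highest (log2 difference 8.55 ± 1.43 SE, adjusted p = 0.0082, or 0.057 without SPF4 and GF530). SPF3 held the only SPF reads, and without it the fitted log2 difference was 12.14, so its size is poorly set. Pik3ip1, a membrane protein that restrains PI3-kinase, was at 3.94, 9.81, 7.48 and 8.35 CPM in SPF and at 100.4, 40.1 and 17.7 CPM in GF. The groups did not overlap, and the log2 difference was 2.84 ± 0.48 (adjusted p = 0.0048, or 0.07 without GF529, the highest library).

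Per1, a repressor of the circadian clock that glucocorticoids also induce, was at 23.6, 21.9, 40.0 and 12.6 CPM in SPF and at 121.5, 102.4 and 65.8 CPM in GF. The lowest GF library lay above the highest SPF library, and the log2 difference was 1.96 ± 0.43 (adjusted p = 0.032). Sult1a1, a phenol sulfotransferase, was at 99.2, 153.6, 173.2 and 141.0 CPM in SPF and at 351.6, 297.0 and 279.0 CPM in GF, a log2 difference of 1.12 ± 0.26 (adjusted p = 0.037). Again the groups were apart, with GF529 highest; Sult1a1 shares an exon with Sgf29 on the opposite strand (log2 difference 0.20, adjusted p = 0.8). Per1 lost its call without SPF1 (0.078), SPF2 (0.095), SPF4 (0.097), GF529 (0.12) or GF530 (0.089), and Sult1a1 without any library but SPF3 (0.057 to 0.13). The count of list members called higher was 2 without SPF1, SPF2, SPF4 or GF530, 1 without GF529, 3 without GF532 and 1 without SPF4 and GF530.

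Other well-known members of the list had the same separation without passing. Fkbp5, a chaperone that dampens the glucocorticoid receptor, was at 109.9, 192.2, 355.2 and 105.9 CPM in SPF and at 824.4, 670.0 and 542.3 CPM in GF (log2 difference 1.83 ± 0.52, adjusted p = 0.11). Tsc22d3, which encodes the leucine zipper protein GILZ, spanned 76.8 to 236.8 CPM in SPF and 273.8 to 622.3 CPM in GF (1.55 ± 0.50, adjusted p = 0.18). Ddit4, an inhibitor of mTORC1, spanned 1.79 to 9.07 CPM and 23.5 to 97.9 CPM (3.41 ± 1, adjusted p = 0.13). For all 3 genes GF529 held the highest value and SPF3 the highest of SPF. Members without such separation included Sgk1, a kinase (log2 difference -0.11 ± 0.20), and Mt1, a metallothionein (0.04 ± 0.22), and the cell-cycle brake Cdkn1a lay lower in every GF library (4.70 to 11.6 CPM against 17.6 to 30.1 CPM, adjusted p = 0.094). Nr3c1, the receptor itself, spanned 263.2 to 292.9 CPM in SPF and 214.3 to 249.0 CPM in GF (-0.28 ± 0.10, adjusted p = 0.23).

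The promoters of Per1 and Sult1a1 are shown because these called genes hold letters of motifs that clock and glucocorticoid factors are known to bind. The windows run from 250 bases before to 50 bases after a RefSeq transcription start on build GRCm38.p6, 5′ to 3′ on the gene's strand. Capitals mark the E-box CACGTG and the glucocorticoid receptor half-site AGAACA, both searched on both strands (the half-site reads TGTTCT on the other strand); the motifs share no match here.
Per1, chr11:69098699-69098998, plus strand: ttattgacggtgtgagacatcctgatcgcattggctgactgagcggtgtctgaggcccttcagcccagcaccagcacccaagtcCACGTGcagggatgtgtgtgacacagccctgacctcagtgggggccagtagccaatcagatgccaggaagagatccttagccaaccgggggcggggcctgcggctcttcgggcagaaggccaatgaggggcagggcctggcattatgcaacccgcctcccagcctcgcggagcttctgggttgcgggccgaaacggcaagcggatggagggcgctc
Sult1a1, chr7:126676369-126676668, minus strand: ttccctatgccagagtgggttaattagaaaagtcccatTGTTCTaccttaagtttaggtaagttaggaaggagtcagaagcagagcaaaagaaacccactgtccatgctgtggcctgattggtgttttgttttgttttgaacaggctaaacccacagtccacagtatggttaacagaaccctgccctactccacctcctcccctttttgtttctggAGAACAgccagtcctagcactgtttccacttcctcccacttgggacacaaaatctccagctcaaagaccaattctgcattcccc
The Per1 window holds 1 E-box, at -166 from the start site, and 0 half-sites. A second Per1 window, not shown, holds 0 of either motif. The Sult1a1 window holds 2 half-sites and 0 E-boxes. E-boxes lie in 7.15% of all 32851 windows of this length and half-sites in 19%. Among windows of the genes called higher both shares were 9.3% (4 of 43 windows each), against 9.7% and 13.5% over windows of the genes tested. Among windows of the genes called lower, E-boxes lay in 5.48% (4 of 73) and half-sites in 16.4% (12 of 73). The window of the risen Pik3ip1 holds 0 of either motif, and those of the fallen Fcrls and Sparc hold 1 and 2 half-sites. RefSeq entries were found for 89 of the 124 called genes.

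Notch4, Sgip1 and Neat1 rose outside that list. Notch4, a Notch receptor best known from vessels, was at 24.6, 15.8, 31.3 and 8.01 CPM in SPF and at 130.7, 62.3 and 90.3 CPM in GF. All GF libraries lay above all SPF libraries (log2 difference 2.21 ± 0.39, adjusted p = 0.0089, or 0.068 without GF529). Endothelial and mural markers, whose cells carry Notch4, summed to 13.53 to 44.1 CPM in SPF and 14.66 to 25.6 CPM in GF, which overlap. The sum was mostly Pecam1, and 4 of the 11 markers were at 0 in all 7 libraries. Pdgfrb lay higher in every GF library (2.259 to 3.782 CPM against 0.9898 to 2.001 CPM). Cdh5 lay lower in every GF library (0 to 0.1554 CPM against 0.341 to 1.143 CPM). The part of such cells in the Notch4 rise was not tested. Sgip1, an adaptor of clathrin endocytosis, was at 1.16, 1.19, 2.14 and 3.41 CPM in SPF and at 15.53, 5.10 and 13.9 CPM in GF (2.60 ± 0.42, adjusted p = 0.0042). Neat1, the long noncoding RNA that builds paraspeckles, was at 77.4, 88.6, 109.3 and 70.2 CPM in SPF and at 162.4, 241.0 and 171.7 CPM in GF (1.15 ± 0.18, adjusted p = 0.0042). Both were apart between the groups in every library, Sgip1 with GF530 lowest of GF and Neat1 with GF530 highest.

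Some rises were largest in GF530, the library with the fewest genes for its depth. Klf2, a transcription factor that keeps myeloid and endothelial cells quiescent, was at 16.0, 24, 42.2 and 37.5 CPM in SPF and at 67.6, 191.5 and 47.9 CPM in GF (1.78 ± 0.37, adjusted p = 0.025). Without GF530 its log2 difference was 0.96 (adjusted p = 0.26), and it also missed the threshold without SPF1 (0.071), SPF2 (0.079) or SPF4 (0.055). Over all genes, 0.328% were called higher. Among 28 immediate-early and dissociation-stress genes, Klf2 was the 1 member called (1 higher, 0 lower, median log2 0.19). That median was -0.07 without GF530 and -0.02 without SPF4 and GF530, and the count was 0 without SPF1, SPF2, SPF4 or GF530. Adamts1, a secreted metalloprotease, was at 29.8, 17.9, 22.9 and 20.5 CPM in SPF and at 42.0, 101.7 and 49.8 CPM in GF (1.5 ± 0.27, adjusted p = 0.009, or 0.08 with a log2 difference of 1.01 without GF530). Kcnj12, a potassium channel, spanned 0 to 0.735 CPM in SPF and read 2.12, 12.4 and 2.85 CPM in GF (3.37 ± 0.73, adjusted p = 0.031), and 2.15 on the log2 scale without GF530 (adjusted p = 0.25). Its call was also lost without any 1 SPF library (0.06 to 0.079). The 3 genes were apart between the groups in all libraries, and GF530 held the highest value of each.

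Il15ra, Lifr and Bcl2 were higher in GF as well. Il15ra, the alpha chain of the interleukin-15 receptor, spanned 22.5 to 40.0 CPM in SPF and 51.2 to 104.5 CPM in GF (1.37 ± 0.29, adjusted p = 0.026, and 0.069 to 0.15 without SPF1, SPF2, SPF4, GF529 or GF530). Lifr, the receptor for leukaemia inhibitory factor, spanned 163.2 to 246.8 CPM and 324.9 to 451.6 CPM (0.98 ± 0.21, adjusted p = 0.029). Bcl2, which blocks mitochondrial apoptosis, spanned 12.3 to 26.3 CPM and 35.5 to 60.2 CPM (1.09 ± 0.22, adjusted p = 0.022). All 3 had every GF library above every SPF library. Lifr and Bcl2 were chosen after their values were seen. Lifr lost its call without SPF1, SPF2, SPF4, GF529 or GF530 (0.071 to 0.13) and Bcl2 without SPF4 (0.055) or GF529 (0.13).

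Some rises are uncertain because of shared sequence. Ugt1a8, a UDP-glucuronosyltransferase, was at 0 in all 4 SPF libraries and at 4.85, 2.49 and 2.12 CPM in GF. Its GF mean lay 67.4-fold above a floor of 3 counts over the SPF group (adjusted p = 0.00022). The exons of Ugt1a8 overlap those of Ugt1a9 (called, adjusted p = 0.024) and of other Ugt1a genes on the same strand, among them Ugt1a7c (-0.29, adjusted p = 0.42). Plet1os overlaps Plet1 on the opposite strand, and both lay above SPF in every GF library (Plet1os 3.01 to 23.5 CPM against 0.158 CPM at most, adjusted p = 0.024; Plet1 2.78 to 6.30 CPM against 0.880 CPM at most, adjusted p = 0.11). Tmem181b-ps (13.2 to 15.6 CPM against 3.71 to 4.56 CPM, adjusted p = 0.0023) and Dynlt1b (5.83 to 8.5 CPM against 2.05 to 3.57 CPM, adjusted p = 0.029) have near-identical copies. Among copies, Dynlt1c (log2 difference 0.00) and Tmem181a (0.46, adjusted p = 0.59) did not pass. Ugt1a8 and Tmem181b-ps passed with any 1 library left out. The calls were lost without SPF1, SPF2, SPF4 or GF529 for Ugt1a9 and Plet1os (Plet1os without SPF3 too, 0.055 to 0.098 over both), and without SPF1, SPF4, GF529, GF530 or GF532 for Dynlt1b (0.068 to 0.09). Without strand information, reads of a gene and an overlapping partner cannot be told apart, and 37 of the 124 called genes overlap an exon of another gene.

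Nnt, Wdfy1 and Gpr137b were also higher. Nnt encodes the mitochondrial NAD(P) transhydrogenase and is the gene known to carry a deletion in the C57BL/6J substrain. It was at 71.5, 38.2, 44.8 and 43.1 CPM in SPF and at 102.5, 93.3 and 82.6 CPM in GF (0.91 ± 0.17, adjusted p = 0.013). Wdfy1, an endosomal protein, was at 38.9, 22.7, 35.6 and 40.4 CPM in SPF and at 94.6, 53.6 and 70.3 CPM in GF (1.09 ± 0.23, adjusted p = 0.027). Gpr137b, a lysosomal membrane protein, spanned 44.5 to 59.5 CPM in SPF and 81.8 to 122.2 CPM in GF (0.97 ± 0.20, adjusted p = 0.022), while its pseudogene Gpr137b-ps spanned 54.2 to 82.3 CPM and 8.55 to 46.3 CPM (-1.10 ± 0.74, adjusted p = 0.59). In GF532 the gene was at its highest, 122.2 CPM, and the pseudogene at its lowest, 8.55 CPM. Each of the 3 genes lost its call without SPF4 (0.054 to 0.061); Nnt also did without GF529 (0.079), Wdfy1 without SPF2 (0.093), SPF3 (0.053), GF529 (0.15) or GF532 (0.053), and Gpr137b without SPF3 (0.053), GF530 (0.059) or GF532 (0.08). The part of substrain or colony in these values was not tested.

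**Figure D3:**
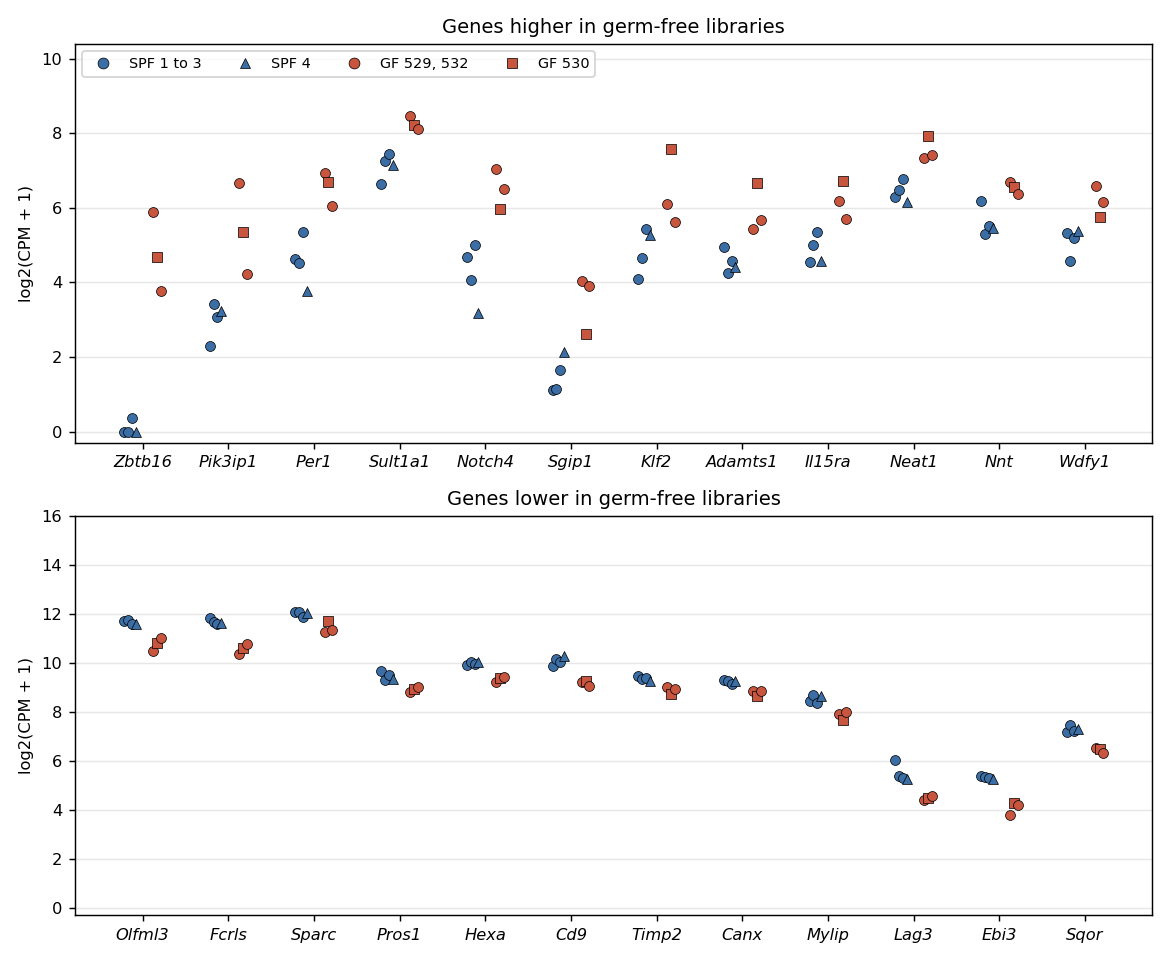
Each point is 1 library; the vertical axis is log2(CPM + 1), blue marks SPF (triangle: SPF4) and red marks GF (square: GF530). For all 24 genes shown the groups do not overlap, which largely follows from their selection as called genes. The falls have a narrower spread than the rises.

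Of 27 homeostatic genes tested, 5 were called lower and 0 higher, the median log2 difference was -0.23 (0.00 over all genes), and 13 had every GF library below every SPF library. Over all genes tested, 0.399% were called lower and 5.71% had every GF library below every SPF library. Olfml3, a secreted glycoprotein typical of microglia, was at 3341, 3419, 3115 and 3083 CPM in SPF and at 1417, 1809 and 2083 CPM in GF. The groups were far apart with GF529 lowest (log2 difference -0.87 ± 0.11, adjusted p = 0.00022), and Olfml3 passed in all 16 alternatives. Fcrls, an Fc receptor-like surface protein, was at 3649, 3235, 3095 and 3213 CPM in SPF and at 1326, 1554 and 1746 CPM in GF (-1.10 ± 0.21, adjusted p = 0.019). Here too GF529 was lowest, and the call was lost without GF529 (0.098) or GF530 (0.059).

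Sparc, a matricellular protein secreted by microglia, was at 4375, 4330, 3788 and 4221 CPM in SPF and at 2481, 3330 and 2624 CPM in GF (-0.57 ± 0.11, adjusted p = 0.019, and 0.054, 0.11 and 0.061 without SPF4, GF529 or GF532). Pros1, the protein S ligand of TAM phagocytic receptors, was at 819.3, 623.2, 727.1 and 657.2 CPM in SPF and at 443.9, 486.3 and 513.5 CPM in GF (-0.55 ± 0.09, adjusted p = 0.0042, and 0.05 without GF529). No library crossed between the groups for either of these genes. The count of homeostatic falls was 1 without GF529, 3 without SPF4, GF530 or GF532, and 3 without SPF4 and GF530.

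The purine receptor P2ry12, at 7358, 5998, 6139 and 7534 CPM in SPF and 5200, 5234 and 4875 CPM in GF, did not pass (-0.40 ± 0.12, adjusted p = 0.10), although no library crossed between the groups. Tmem119, a microglial membrane protein, spanned 3362 to 3975 CPM in SPF and 2582 to 3279 CPM in GF (-0.34 ± 0.12, adjusted p = 0.20). Cx3cr1, the fractalkine receptor, spanned 8023 to 9980 CPM and 7300 to 7812 CPM (-0.25 ± 0.10, adjusted p = 0.31). Csf1r, the receptor for the survival factors CSF1 and IL-34, overlapped between the groups (-0.23 ± 0.11, adjusted p = 0.40). The 10 microglia markers together summed to 52870 to 58540 CPM in SPF and 43220 to 44380 CPM in GF, and without TMM scaling to 52030 to 56520 and 45310 to 46320. In bulk RNA, fewer cells of a type and less of their RNA per cell cannot be told apart. The 20 most abundant genes held 15.1% to 15.7% of counts in SPF and 13.2% to 14.1% in GF; the part of this shift in the falls was not tested.

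Transcription factors of microglial identity were split in direction. Of 21 tested, 0 passed in edgeR's quasi-likelihood test and 0 in DESeq2, the median log2 difference was 0.08, and at an unadjusted p under 0.05 there were 4 higher and 3 lower. Irf8, which sets myeloid fate, was lower in every GF library (610.7 to 772.7 CPM against 862.0 to 914.4 CPM, -0.34 ± 0.11, adjusted p = 0.15). Mef2a (0.38 ± 0.12, adjusted p = 0.16) and Runx1 (0.61 ± 0.21, adjusted p = 0.19), both regulators of microglial enhancers or development, lay above SPF in every GF library. Spi1, which encodes PU.1, lay below it (-0.35 ± 0.12, adjusted p = 0.20).

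Among 32 genes of disease-associated microglia, the programme that surrounds amyloid plaques, 2 were called lower and 0 higher (median log2 -0.30). The shares over all genes were 0.399% lower and 0.328% higher. Cd9, a tetraspanin, was at 932.6, 1138, 1048 and 1254 CPM in SPF and at 602.7, 620.7 and 534.8 CPM in GF (-0.90 ± 0.18, adjusted p = 0.021). Timp2, an inhibitor of metalloproteases, was at 699.3, 649.6, 658.7 and 616.1 CPM in SPF and at 510.9, 428.5 and 490.4 CPM in GF (-0.46 ± 0.11, adjusted p = 0.047). Both were below SPF in every GF library. Timp2 lost its call without any 1 library (0.071 to 0.21), and Cd9 did without SPF4 (0.061), GF529 (0.07) or GF532 (0.061). Over the list, 25 members had a log2 difference below 0 and 7 above. At an unadjusted p under 0.05, 7 were lower and 2 higher (6.66% and 5.95% of all genes). In 9 every GF library lay below every SPF library, and in 2 above (5.71% and 5.39% of all genes). The other 30 members did not pass. Among them were Apoe, a lipid carrier (0.70 ± 0.49, adjusted p = 0.61), Clec7a, a glucan receptor (-0.61 ± 0.81, 0.85), Cst7, a cystatin (-0.87 ± 0.69, 0.68), and Trem2, the lipid-sensing receptor (-0.37 ± 0.12, 0.17). Apoe overlapped between the groups, at 240.7 to 398.4 CPM in SPF and 343.6 to 718.7 CPM in GF. The list's count was 0 without SPF4, GF529 or GF532 and 1 without SPF1, SPF2, SPF3 or GF530.

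Of 39 phagocytosis and lysosome genes, 2 were called lower and 0 higher, with a median log2 of -0.24, against 0.399% called lower over all genes. In 16 of the 39 every GF library lay below every SPF library, against 5.71% of all genes tested. Hexa, a subunit of lysosomal hexosaminidase, was at 960.7, 1043, 981.2 and 1049 CPM in SPF and at 589.1, 665.1 and 689.4 CPM in GF (-0.64 ± 0.13, adjusted p = 0.025). All 3 GF values lay below all 4 SPF values. Cathepsins D, B and L (Ctsd -0.33 ± 0.13, Ctsb -0.38 ± 0.15, Ctsl -0.46 ± 0.14) were below SPF in every GF library but had adjusted p-values of 0.27, 0.30 and 0.15. Hexa lost its call without SPF2 (0.067), SPF4 (0.064), GF529 (0.12) or GF530 (0.071), and the list's count was 0 without SPF2, SPF4, GF529 or GF530 and 1 without GF532.

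Lag3, Ebi3 and Lst1 were lower too. Lag3, an inhibitory receptor that binds MHC class II, was at 63.6, 41.1, 37.8 and 36.8 CPM in SPF and at 20.1, 21.5 and 22.4 CPM in GF (-1.07 ± 0.23, adjusted p = 0.025), with SPF1 far above the other SPF libraries. It was the 1 call among 19 inhibitory receptors (0 higher, 1 lower, median log2 -0.19), against 0.399% called lower over all genes. The Lag3 call was lost without SPF1 (0.077), GF529 (0.12), GF530 (0.085) or GF532 (0.058). Another inhibitory receptor, the lipid-binding Cd300lf, lay higher in every GF library, at 0.525, 3.19, 1.04 and 3.75 CPM in SPF and 21.6, 5.15 and 11.3 CPM in GF (2.67 ± 0.75, adjusted p = 0.094). Ebi3, the shared subunit of interleukins 27 and 35, was at 40.1, 39.7, 38.7 and 37.2 CPM in SPF and at 12.9, 18.2 and 17 CPM in GF (-1.28 ± 0.21, adjusted p = 0.0042). Its SPF values were almost equal, and all GF values lay far below them. It overlaps Gm16712 on the opposite strand (log2 difference -1.15, adjusted p = 0.48). Lst1, a leukocyte membrane adaptor, spanned 49.6 to 67.4 CPM in SPF and 22 to 30.6 CPM in GF (-1.08 ± 0.22, adjusted p = 0.024, and 0.058 to 0.12 without SPF1, SPF4, GF529 or GF530).

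Ptpn6 and Unc93b1, chosen after their values were seen, also fell. Ptpn6, the phosphatase SHP-1 that inhibitory receptors recruit, spanned 494.5 to 580.4 CPM in SPF and 307.2 to 395.8 CPM in GF (-0.57 ± 0.12, adjusted p = 0.024). Unc93b1, which carries nucleic acid-sensing Toll-like receptors to endosomes, spanned 1438 to 1655 CPM and 1053 to 1311 CPM (-0.43 ± 0.09, adjusted p = 0.025). In neither did the groups overlap. The calls were lost without SPF1, SPF4, GF529 or GF530 for Ptpn6 (0.055 to 0.12) and without SPF1, SPF2, GF529 or GF530 for Unc93b1 (0.063 to 0.13).

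Of 28 unfolded protein and heat shock genes, 1 was called lower and 0 higher, with a median log2 of -0.31, against 0.399% called lower over all genes. Canx, the membrane-bound lectin chaperone of the endoplasmic reticulum, was at 634.1, 613.9, 565.5 and 611.0 CPM in SPF and at 467.5, 402.1 and 462.2 CPM in GF (-0.45 ± 0.10, adjusted p = 0.031, and above 0.05 without any library but SPF3, at 0.057 to 0.16). Its partners Pdia3, a disulfide isomerase (-0.41 ± 0.10, adjusted p = 0.054), and Calr, the soluble lectin chaperone (-0.42 ± 0.11, adjusted p = 0.079), also lay below SPF in every GF library. The list's count was 0 without SPF1, SPF2, SPF4, GF529 or GF532, and without GF530 it was 1, a gene other than Canx. Among 15 cholesterol export genes, 1 was called lower, against 0.399% over all genes. This was Mylip, the LXR-induced ligase that degrades LDL receptors (-0.68 ± 0.13, adjusted p = 0.017). It spanned 329.8 to 407.4 CPM in SPF and 199.6 to 255.9 CPM in GF and lost its call without SPF4 (0.055), GF529 (0.063) or GF530 (0.085). Sqor, the mitochondrial sulfide oxidase, was at 144.0, 177.8, 148.2 and 155.5 CPM in SPF and at 90.8, 88.9 and 79.0 CPM in GF (-0.86 ± 0.13, adjusted p = 0.0023) and passed in all 16 alternatives.

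**Figure D4:**
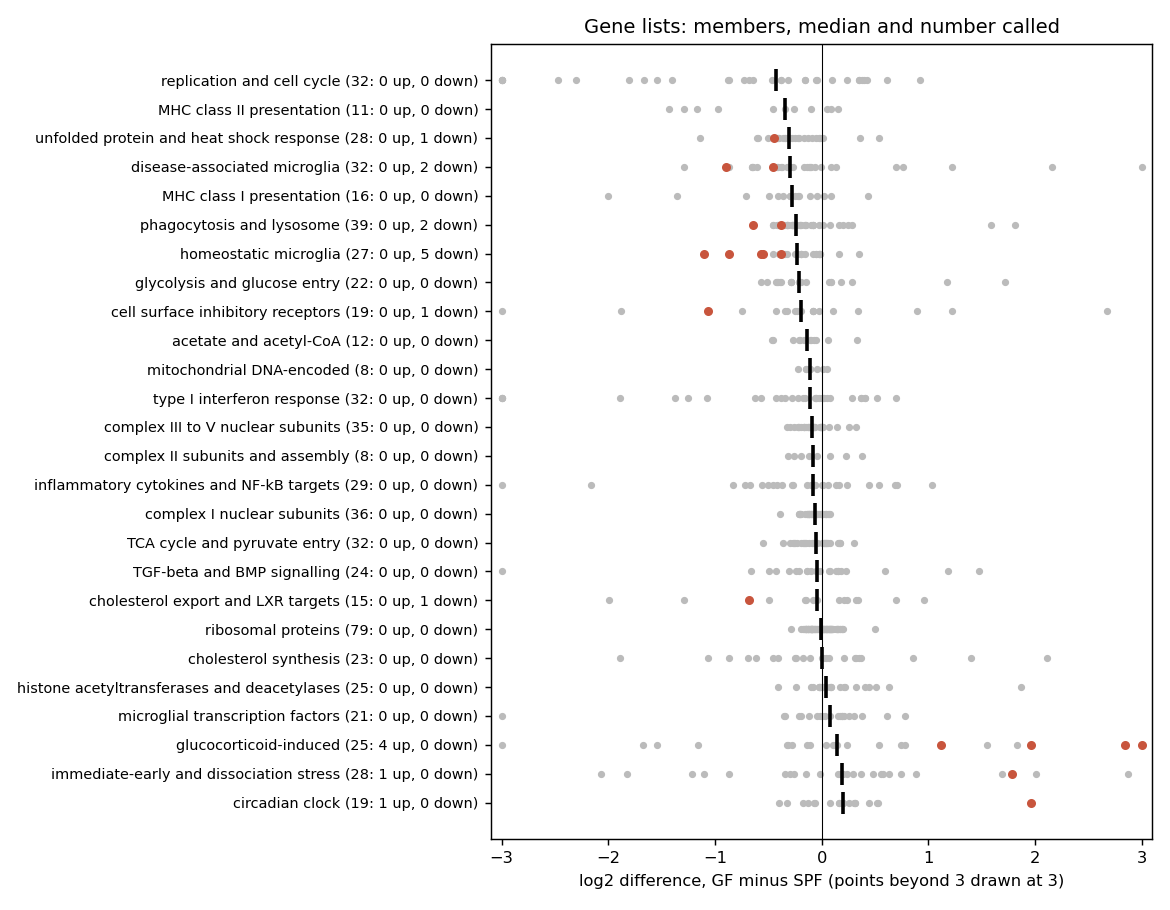
Grey points are tested members of each of 26 gene lists and red points those at an adjusted p under 0.05, placed by their log2 difference, GF minus SPF, with differences beyond 3 drawn at 3; black bars are list medians. Labels give the number tested and called; the only list with 4 rises is the glucocorticoid-induced one, and the homeostatic list holds 5 falls.

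The energy metabolism lists held 0 calls, while the mitochondrial genes Nnt (higher) and Sqor (lower), outside these lists, were called. Acetate enters metabolism through acetyl-CoA, and succinate dehydrogenase, or complex II, links the TCA cycle to the respiratory chain. Over 149 genes of the respiratory complexes, mitochondrial DNA, TCA cycle, acetate use and glycolysis, edgeR's quasi-likelihood test called 0, with a median log2 of -0.10. Of these genes 1 was higher and 11 lower at an unadjusted p under 0.05, against 5.95% and 6.66% of all genes. Among the 149, DESeq2 called 1 higher (Slc2a3) and 2 lower (Aco1 and Hk3). Sdha was at 229.6, 233.2, 215.2 and 208.7 CPM in SPF and at 249.5, 213.1 and 241.6 CPM in GF (0.08 ± 0.11), with overlapping groups. Sdhb (-0.12 ± 0.12), Sdhc (-0.19 ± 0.16) and Sdhd (-0.04 ± 0.13) overlapped as well, with adjusted p-values of 0.70 to 0.97 for the 4 subunits. The acetyl-CoA synthetases Acss1 (-0.20 ± 0.16, adjusted p = 0.69) and Acss2 (-0.47 ± 0.59, adjusted p = 0.83) did not pass either, and the 25 histone acetyltransferases and deacetylases had 0 calls, also in DESeq2, with 3 higher and 0 lower at an unadjusted p under 0.05. A p that misses the threshold does not show equal levels, and the standard errors of the 4 subunits, 0.11 to 0.16, set what could be seen.

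Immune response lists were likewise without calls. Over 87 genes of the interferon response, MHC classes I and II and inflammatory cytokines, 0 passed in edgeR's quasi-likelihood test, with a median log2 of -0.21. Of these genes 3 were higher and 16 lower at an unadjusted p under 0.05, against 5.95% and 6.66% of all genes. Among the 87, DESeq2 called 0 higher and 3 lower, namely the co-stimulatory ligand Cd86 (-0.37 ± 0.09 and adjusted p = 0.064 in edgeR), the peptide-loading factor Tapbp (-0.30 ± 0.09, 0.13) and the 2-5A synthetase Oas2 (-5.24 ± 1.57, 0.13). Cd74, the MHC class II invariant chain, was at 98.9 CPM in SPF4 and between 10.5 and 27.9 CPM in the other 6 libraries. The median of the 11 MHC class II genes was -0.34 with all libraries and 0.04 without SPF4 and GF530. Ribosomal proteins (79 genes, median -0.01), cholesterol synthesis (23 genes, 0.00) and TGF-beta signalling (24 genes, -0.04) held 0 calls in edgeR's quasi-likelihood test and in DESeq2, with 0, 0 and 2 higher and 1, 2 and 3 lower at an unadjusted p under 0.05.

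Of 32 replication and cell-cycle genes tested, 0 passed in edgeR's quasi-likelihood test, 2 were higher and 3 lower at an unadjusted p under 0.05, the median log2 was -0.43, and DESeq2 called 3 lower (Mki67, Rrm2 and Cdkn1a). Their summed level went the other way, at 643.6 to 786.3 CPM in SPF and 805.8 to 868.3 CPM in GF, without overlap. Part of that sum was the cyclin Ccnd3, at 84.4 to 173.5 CPM in SPF and 181.8 to 246.6 CPM in GF (0.92 ± 0.27, adjusted p = 0.13). Mki67, a proliferation antigen, was at 3.15, 5.67, 7.31 and 0.171 CPM in SPF and at 0.155, 0 and 0.259 CPM in GF (-4.83 ± 1.28, adjusted p = 0.076), and SPF4 overlapped the GF range. Among called genes outside the list, the mitotic kinase Pbk (1.10 to 2.43 CPM in SPF) and the centromere protein Cenpi (0.210 to 4.48 CPM in SPF) were at 0 in all GF libraries. Their SPF means lay 31.8-fold and 38.0-fold above a floor of 3 counts over the GF group (adjusted p = 0.034 and 0.032). Single SPF libraries lay nearer to that floor. Pbk lost its call without any library but SPF3, and Cenpi without SPF2, SPF4 or any GF library (0.055 to 0.12 over both). In 5xFAD hippocampus Cenpi had a log2 difference of 1.94 and Pbk of -1.77, and neither passed there.

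The summed markers of border macrophages, the resident macrophages of meninges and vessels, lay lower in GF. The 9 border macrophage markers summed to 14.15 to 27.99 CPM in SPF and 1.969 to 9.739 CPM in GF, without overlap. The sum was mostly Mrc1, the mannose receptor, at 26.4, 15.48, 16.2 and 11.4 CPM in SPF and at 6.35, 1.27 and 9.32 CPM in GF (-1.62 ± 0.78, adjusted p = 0.39). Pf4 was at 0.5775, 0, 1.595 and 0 CPM in SPF, and Ms4a7 at 0, 0.3811, 0.7698 and 2.387 CPM. Both were at 0 in GF and so overlapped SPF. F13a1 came almost wholly from SPF3 (5.444 CPM), and Lyve1 and Cd209f were at 0 in all 7 libraries. Of 7 tested markers, 0 passed in edgeR's quasi-likelihood test. At an unadjusted p under 0.05, 0 were higher and 4 lower, against 5.95% and 6.66% of all genes. DESeq2 called 0 of these markers higher and 2 lower. Their part in the falls was not tested. Astrocyte markers summed to 233.3 to 302.2 CPM in SPF and 320.3 to 439.1 CPM in GF, nearly all of it the glutamate transporter Slc1a3, while Gfap was at 0 and Aqp4 at or under 4.94 CPM in all libraries; 0 of 5 tested passed, and their part in the rises was not tested. Neuronal (27.15 to 46.45 CPM over all 7, mostly Prox1), T and NK cell (at most 1.238 CPM) and oligodendrocyte (149.6 to 170.8 CPM) sums overlapped. Microglia-expressed Ighm made up most of the B cell sum, and the erythroid and neutrophil sums set SPF3 and GF532 apart. Without SPF3, 58 genes were higher and 51 lower, and without GF532, 52 and 46.

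The calls were then looked up in microglia from other mice. 5xFAD mice carry human transgenes with familial Alzheimer's disease mutations under the neuronal Thy1 promoter, and the 5xFAD hippocampus libraries, 4 SPF and 3 GF from mice of 16 weeks, share none with the wild-type groups, although all entered the same fit. Among the 5xFAD SPF libraries, 1 was about as shallow as SPF4, at 5743891 counts. In 5xFAD, 1.82% of 17063 genes were called (0.908% higher and 0.914% lower). Of the 56 rises, 29 were called higher and 0 lower there, and 51 had a log2 difference above 0. Of the 68 falls, 20 were called lower and 0 higher, and 65 lay below 0. Their medians were 0.80 and -0.36 in 5xFAD, against 1.09 and -0.67 in wild type, where the genes had been selected. Of the calls made without SPF4 and GF530, 10 of 15 rises and 10 of 14 falls were called the same way in 5xFAD. Without the shallow 5xFAD library, 1.41% of genes were called in 5xFAD, 29 of the 56 rises were called higher and 17 of the 68 falls lower, again with 0 the other way.

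**Figure D5:**
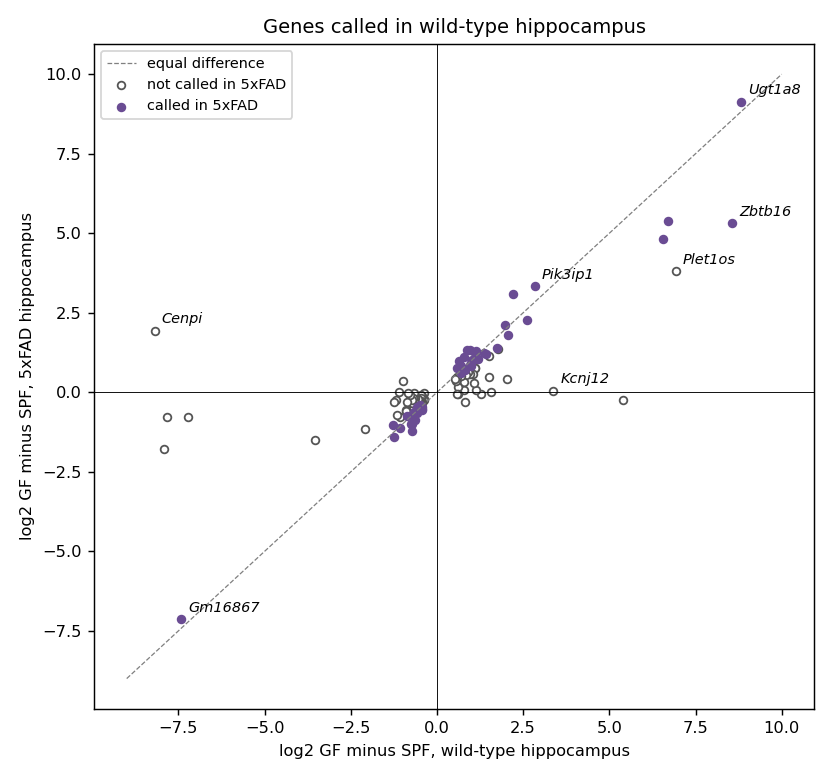
Each point is 1 of the 124 genes called in wild-type hippocampus, with its log2 difference, GF minus SPF, in wild type on the horizontal axis and in 5xFAD hippocampus on the vertical axis; the dashed line marks equal differences. Filled points passed in 5xFAD too (49 genes); most points keep the wild-type sign, and Kcnj12 and Cenpi are among those that lie near or across 0.

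Values of 5xFAD mice are given beside those of wild type for the glucocorticoid-induced list and for 3 genes. The list had 11 of 25 members called higher and 1 lower in 5xFAD hippocampus, with a median log2 of 0.93, and 4, 0 and 0.14 in wild type. Without the shallow library the 5xFAD values were 10, 1 and 0.65. The difference between these list counts was not tested. Zbtb16 spanned 1.49 to 11.5 CPM in 5xFAD SPF and 98.4 to 198.0 CPM in 5xFAD GF, and it spanned 0 to 7.56 CPM in wild-type GF mice given acetate. Its change did not pass as different between genotypes (adjusted p = 0.95). Olfml3 fell in both genotypes, spanning 2717 to 2901 CPM in 5xFAD SPF and 1592 to 1743 CPM in 5xFAD GF (-0.76, adjusted p = 0.00043), and it spanned 2585 to 3008 CPM in acetate-treated wild-type GF mice. Fcrls spanned 759.2 to 2181 CPM in 5xFAD SPF, where the shallow library lay far below the others, and 1528 to 1898 CPM in 5xFAD GF (log2 difference 0.00, or -0.24 with adjusted p = 0.50 without it). The difference between the genotypes' changes for Fcrls was 1.10 ± 0.29 on the log2 scale and did not pass (adjusted p = 0.56).

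Tested directly, the GF change differed between genotypes for 0 of 17063 genes in edgeR's quasi-likelihood test (0%), with 942 genes (5.52%) at an unadjusted p under 0.05 and 8 higher and 7 lower in DESeq2. Without GF532, 1 gene was higher. The smallest p belonged to Gpd1, a glycerol phosphate dehydrogenase (difference 2.02 ± 0.37, adjusted p = 0.25). Between hippocampus and cortex of the same animals, with the animal as a block, 0 of 16026 genes differed (0%), with 912 (5.69%) at an unadjusted p under 0.05 and 0 higher and 2 lower in DESeq2. Leaving out SPF1 or GF529 gave 1 lower. Actc1, a muscle actin, had the smallest p there (-9.63 ± 1.42, adjusted p = 0.36), and in hippocampus its counts came almost wholly from SPF4 (143.9 CPM, at most 1.48 CPM in the other 6 libraries). So 16 rises and 41 falls that passed in wild-type hippocampus and in none of 5xFAD hippocampus, cortex or whole brain are not shown to be particular to it. Among them Tiparp, an ADP-ribosyltransferase induced by the aryl hydrocarbon receptor, was at 31.7, 52.1, 40.0 and 48.1 CPM in SPF and at 22.4, 25.2 and 17.1 CPM in GF (-0.99 ± 0.23, adjusted p = 0.043, and 0.06 to 0.14 without any library but SPF1). Its change was below that in cortex by 1.30 ± 0.26 on the log2 scale (adjusted p = 0.81 for that difference).

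In cortex, where most libraries come from the same animals and 1.71% of genes were called (0.873% higher and 0.84% lower), 31 of the 56 rises were called higher and 16 of the 68 falls lower, with 0 called the other way. The whole-brain libraries, 3 SPF and 5 GF, come from other mice, with a labelled age of 6 to 12 weeks in place of 16. Ddx3y was at 0 in all 8 of them, where it was at 64.0 CPM or above in every hippocampus and cortex library, so sex, age and region cannot be told apart there. In whole brain, 1.99% were called (1.02% higher and 0.971% lower), and 9 of 44 rises tested were higher and 4 of 62 falls tested lower, again with 0 the other way. Of those rises 31 lay above 0 and 13 below (median log2 0.18), and of the falls 39 lay below 0 and 23 above (median -0.07). Notch4, Ogfrl1 and Sult1a1 were called higher, and the lysosomal phospholipase Pla2g15 lower, in all 4 comparisons. For Notch4 the log2 difference was 2.21 in wild-type hippocampus, 3.09 in 5xFAD hippocampus, 2.01 in cortex and 1.35 in whole brain. Pla2g15 changed by -0.49, -0.52, -0.50 and -0.22 in the same order, and its call in wild-type hippocampus was lost without any library but SPF4 (0.052 to 0.13). Olfml3 and Fcrls, called in cortex (-0.84 and -0.93), lay at -0.15 and -0.06 in whole brain and did not pass there (adjusted p = 0.24 and 0.58).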

How the data were processed

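RNA-seq read counts per gene were used as the authors deposited them; STAR 2.5.2b, featureCounts 1.5.1 and build GRCh38 are named per the submitters' processing notes. That is a human build and the table holds mouse symbols, so no coordinates were taken from it. Strand settings and annotation are not given in the sources used here. Depth was 5862938 to 21150484 counts in the 7 libraries and 5743891 to 22532410 over the 22 of the hippocampus fit, and 0 columns lacked a sample. edgeR 4.0.16 (R 4.3.3) fitted 22 hippocampus libraries of 6 groups together with TMM scaling, genes kept by a minimum count of 10, a robust quasi-likelihood test and Benjamini-Hochberg adjustment at 0.05. The comparison with cortex carried the animal as a block, since the 7 hippocampus mice also gave cortex, while GF528 gave cortex alone (correlation of same-animal deviations 0.0276 to 0.11, each animal closest to itself). DESeq2 1.42.0 and limma 3.58.1 voom with sample weights, other scalings and filters, and leaving out libraries were alternatives. The scripts were tested on simulated data. Library pairs differed beyond counting noise, and SPF4 and GF530 were kept. Genes named were up to 15 per direction of largest change among calls of at least 5 CPM without overlap, up to 4 of smallest p per list, up to 5 per difference and a fixed set. Genes outside that rule (Lifr, Bcl2, Ptpn6, Unc93b1, Sgk1, Mt1, Nr3c1, Spi1, Ctsd, Ctsb, Pbk, Cenpi, Ogfrl1, Pla2g15, Ugt1a8 and its neighbours, paralogs and antisense partners, Cbx2, Actc1, Gpd1 and Pdgfrb) were chosen after their values were seen. Some genes counted in the lists are not reported here by name. Members and lists were chosen with earlier results of these data known. Promoters are RefSeq's, on GRCm38.p6; exon overlaps were read from the mouse annotation by symbol, which matched 93.5% of symbols.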

Additional observations from a re-analysis of the deposited data

Results flagged for a closer look

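Among the 4 SPF libraries, 197 values (named genes and marker sums) were checked for 1 library far from the other 3, and 21 were found. Chance gives about 5% of checks, but only for normally distributed values. Genes with reads in only 1 library, such as Zbtb16, Cspg4 and Hif3a, are found by this check whatever their level. Marker sums were also checked beside their own members. The 21 found are therefore not shown to exceed chance. The 3 GF libraries are too few for this check. SPF4 stood apart in 7 values, SPF3 and SPF1 in 6 each and SPF2 in 2.

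In SPF4, the shallow library, Cd74 was at 98.88 CPM (16.48 to 20.68 in the others), neuronal Tubb3 at 5.626 CPM (0.05499 at most), the precursor marker Cspg4 at 0.5115 CPM (0 in the others) and Itm2a at 2.557 CPM (0.0525 at most). Kcnj12 was at 0 CPM there (0.6598 to 0.735), the histone acetyltransferase Crebbp at 179.5 CPM (206.3 to 208.8) and the myelin enzyme Cnp at 72.46 CPM (86.27 to 88.93).

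In SPF3, erythroid markers summed to 71.98 CPM (0.4287 to 1.534 in the others), with Hbb-bs at 39.43 CPM (0.341 at most) and Hba-a1 at 9.568 CPM (0.2625 at most). The macrophage gene F13a1 was at 5.444 CPM (0.341 at most), Zbtb16 at 0.2749 CPM (0 in the others) and the deacetylase Hdac4 at 17.65 CPM (30.86 to 31.91).

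In SPF1, Lag3 was at 63.57 CPM (36.83 to 41.06 in the others), which bears on its fall, and Hif3a at 1.837 CPM (0 in the others). Ifi44 was at 1.47 CPM (0.11 at most), Id2 at 50.92 CPM (73.65 to 77.31), Ndufc2 at 93.87 CPM (108.4 to 110.3) and Rps27a at 58.85 CPM (69.5 to 71.59). In SPF2, choroid plexus and ependyma markers summed to 23.44 CPM (0.4725 to 0.5499), nearly all of it Ttr at 22.1 CPM (0.165 at most).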

How the results depend on the processing

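The counts of 56 rises and 68 falls moved by over 1.5 times under several settings, and no called gene changed sign. DESeq2 called 193 and 228, total-count scaling 98 and 27, a mean of at least 5 CPM 89 and 66, a fit of the 2 groups alone 24 and 10, leaving out SPF4 and GF530 15 and 14, and leaving out SPF3, SPF4 and GF530 (chosen after seeing the data) 7 and 6. Leaving out 1 library gave 17 to 58 rises and 8 to 51 falls. RLE size factors gave 66 and 67, no filter 61 and 48, and voom with sample weights 76 and 62. The share of calls that were rises, 45.16%, was 78.4% with total counts, 57.42% at 5 CPM or more, 55.96% without a filter and 70.59% with the 2 groups alone. The cause of these moves was not tested. For named genes, 2566 repeats kept their direction and their side of the threshold, 273 lost the call and 30 gained it. In 33 repeats, of 15 genes that passed neither way, the sign changed. Cd74 went from -0.97 to 0.04 without SPF4 and Egr1 from 0.19 to -0.90 without GF530. For the genotype difference, DESeq2 called 8 higher and 7 lower and no filter 1 higher; leaving out 1 library gave 0 to 1 higher, 1 of them without GF532.

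For the regional difference with the animal as replicate block, DESeq2 called 2 lower, and leaving out 1 animal gave 0 to 1 lower, with 1 without SPF1 or GF529. Without the replicate block, 0 were higher and 0 lower, with 965 genes at an unadjusted p under 0.05. SPF and GF mice share no replicate numbers, so wild-type GF against SPF has no pairing. Depth limits SPF4 most: at 5862938 counts, genes under 1 CPM rest on few reads.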
